A study of Sus scrofa with 35 samples.

Results

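The SLC25 family holds the carriers that move metabolites, nucleotides and cofactors across the inner membrane of mitochondria. Their transcripts were examined in a muscle of the back, *longissimus dorsi*, of pigs, in thermoneutral conditions (TN) and in heat stress (HS). The members were 22 genes named SLC25A followed by a digit on the array, SLC25A20 not among them. They had 50 probes, among 46723 gene names and 60305 probes, and 19 of the 22 genes had at least 1 probe well above background on 75% or more of the arrays of a group (44 kept probes). SLC25A22, SLC25A25 and SLC25A30 had no such probe and were not tested. Their best probe was well above background on 3, 13 and 6 of the 35 arrays, respectively. The members are known by their gene names only, since transport was not measured.

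Creole pigs, Large White pigs and F1 crosses of both were used, all of them growing castrated males. Each of the 35 arrays held the RNA of 1 animal. There were 6 arrays for every combination of breed and temperature, apart from F1 HS with 5. The TN animals carry a label of 24 °C. The HS animals carry one of 30 °C, but the protocol in the same labels describes 5 days at 32 °C and the study methods 4 or 5 days at 32 °C, and which of them is right was not settled. TN animals were killed first, at the initial temperature, and HS animals after the challenge, and the pens of each breed were divided between both. Littermates were spread over the pens. Heat cannot be told apart from slaughter day, age, pen and the lower feed intake that the study reported under heat. In whole muscle, fewer cells of a type and less RNA per cell cannot be told apart either.

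Carriers of this family share a fold of 3 repeats and are imported from the cytosol. In muscle, the best known are the ADP/ATP carriers (SLC25A4, SLC25A5 and SLC25A6, also called ANT1, ANT2 and ANT3), which exchange mitochondrial ATP for cytosolic ADP, and the phosphate carrier SLC25A3, which brings in the phosphate for ATP synthesis. SLC25A11 exchanges oxoglutarate for malate and, with the aspartate/glutamate carriers SLC25A12 and SLC25A13, serves the malate-aspartate shuttle, which moves the reducing power of cytosolic NADH into mitochondria.

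The values are the brightness of 60-base probes, so the probes decide what can be compared. Those of the genes on which the results turn are shown here 5′ to 3′, as they stand in the scanner files. Capitals mark the run of bases that a probe shares with the other probe shown for the gene. For SLC25A1 they mark the run that is the reverse complement of the other probe, and sequences without capitals share no such run.
SLC25A4, brighter probe: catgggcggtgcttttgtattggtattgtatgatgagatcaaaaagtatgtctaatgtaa
SLC25A4, dimmer probe: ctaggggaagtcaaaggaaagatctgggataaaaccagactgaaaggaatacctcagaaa
SLC25A3, brightest probe: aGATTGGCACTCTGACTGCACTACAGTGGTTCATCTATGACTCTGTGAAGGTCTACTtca
SLC25A3, next brightest probe: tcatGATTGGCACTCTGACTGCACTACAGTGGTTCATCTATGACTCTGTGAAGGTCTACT
SLC25A6, brighter of 2 overlapping probes: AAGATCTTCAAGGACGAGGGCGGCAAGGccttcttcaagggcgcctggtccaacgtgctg
SLC25A6, dimmer of 2 overlapping probes: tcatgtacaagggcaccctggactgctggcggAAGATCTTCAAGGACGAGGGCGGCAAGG
SLC25A11, only probe: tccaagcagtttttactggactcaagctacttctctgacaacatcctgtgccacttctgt
SLC25A23, brightest probe: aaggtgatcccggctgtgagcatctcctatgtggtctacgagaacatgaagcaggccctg
SLC25A23, next brightest probe: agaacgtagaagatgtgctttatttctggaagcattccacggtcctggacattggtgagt
SLC25A1, probe of the rule: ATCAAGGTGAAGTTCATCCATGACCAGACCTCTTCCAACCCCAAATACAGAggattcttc
SLC25A1, probe named in lower case: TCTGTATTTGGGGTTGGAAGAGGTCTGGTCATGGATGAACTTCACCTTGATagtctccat

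The 2 brightest SLC25A3 probes share 56 of their 60 bases, so they count nearly as 1 measurement, whereas the SLC25A4 probes read separate stretches. The SLC25A1 pair reads the same 51 bases from opposite strands. The probe of the rule averaged 8.36 (log2 normalised intensity) and was well above background on 35 of 35 arrays. Its counterpart averaged 5.18 and was well above background on 1 array. For SLC25A46, both probes hold the same 60 bases, and their mean levels were 7.61 and 7.34.

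To see which carriers differed with heat across the breeds, a model of breed and temperature was fitted to all 35 arrays. A gene was called when the Benjamini-Hochberg adjusted p of limma over all 41517 kept probes was below 0.05. Of the 19 measured carriers, 4 were called and all 4 were lower in HS: the ADP/ATP carrier SLC25A4, the oxoglutarate/malate carrier SLC25A11, the ATP-Mg/phosphate carrier SLC25A23 and the phosphate carrier SLC25A3. Over all kept probes 16.0% were called, 8.30% lower and 7.73% higher. The median log2 difference of the 19 carriers was -0.06 (14 lower, 5 higher), and that of all kept probes was -0.02. The balance over all probes varied with the signal and its scaling: 51.8% of calls were lower here, 62.5% with Agilent's processed signal and 75th percentile scaling, which changes both, 43.3% with median scaling and 13.4% with scaling to spike-in controls, while SLC25A3, SLC25A4 and SLC25A11 were called lower under each of these.

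**Figure D1:**
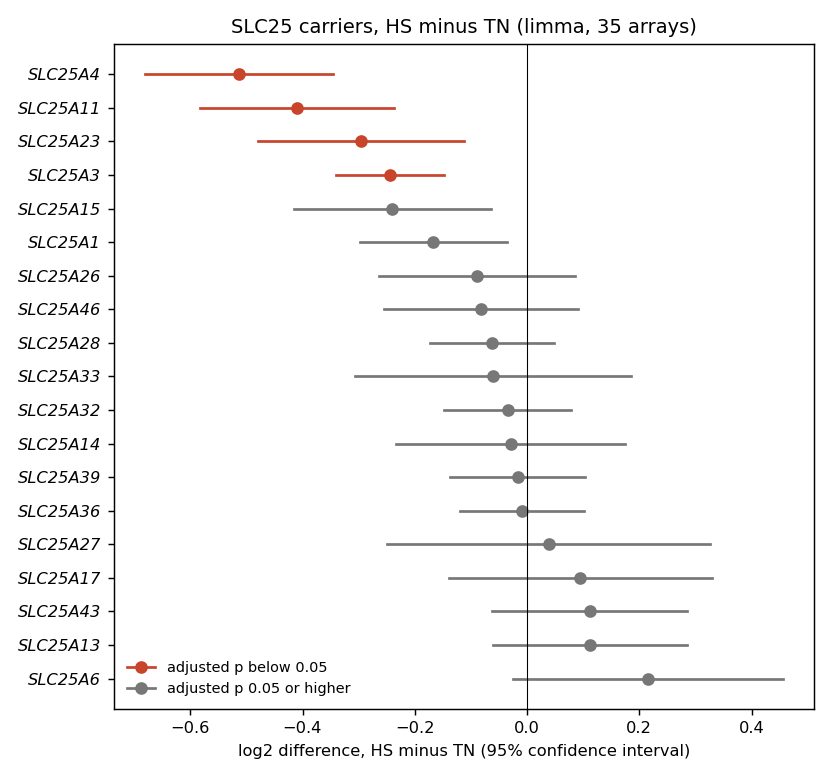
Difference between HS and TN (x axis, log2) for the 19 measured carriers (y axis), with 95% confidence intervals from limma over 35 arrays, 18 TN and 17 HS. The 4 genes called, in red, are all lower in HS, from -0.51 for SLC25A4 to -0.24 for SLC25A3, and no carrier was called higher.

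SLC25A4, the main ADP/ATP carrier of muscle, had the largest difference of the 19 carriers. It ranged from 16.57 to 17.47 on the 18 TN arrays (median 17.08) and from 16.00 to 16.85 on the 17 HS arrays (median 16.55). The groups overlapped in part, with 8 of 17 HS arrays inside the TN range, and all 17 HS arrays were below the TN mean of their own breed. The log2 difference was -0.51 (SE 0.08, adjusted p = 0.000166), a fold of 0.701. Its dimmer probe, on a separate stretch of the transcript, gave -0.47 (SE 0.09, adjusted p = 0.000606). HS was below TN on each of the 5 slides, by -0.65, -0.27, -0.69, -0.45 and -0.51 log2. These slide means, here and for the genes below, take no account of breed, whose mix differed between TN and HS on every slide. The last slide held 2 Large White TN arrays and 1 Creole HS array, so it gives no heat difference within a breed.

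SLC25A3 ranged from 16.46 to 17.09 in TN (median 16.63) and from 16.23 to 16.61 in HS (median 16.46). All 17 HS arrays were below the TN mean of their breed, and 9 lay inside the TN range. The log2 difference was smaller than that of SLC25A4 but had a smaller error, -0.24 (SE 0.05, adjusted p = 0.000902). All 11 probes of SLC25A3 were kept and all were lower in HS, between -0.32 and -0.23, and 10 of the 11 were called. The probe that was not called had the lowest signal and the widest error (-0.32, SE 0.13, adjusted p = 0.0730). Since 3 pairs of these probes share 56, 51 and 30 bases, the 11 probes are fewer than 11 separate measurements.

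SLC25A6, the ADP/ATP carrier of many tissues besides muscle, was not called and lay on the other side of 0. It ranged from 14.89 to 16.17 in TN (median 15.5) and from 15.17 to 16.71 in HS (median 15.75). Most arrays of the groups overlapped, as 15 of 17 HS arrays were inside the TN range. The log2 difference was 0.22 (SE 0.12, adjusted p = 0.215), with a 95% interval from -0.02 to 0.46. All 7 probes had positive differences, 0.15 to 0.26, and none was called, including the pair shown above that shares 28 bases. HS was above TN on 4 of 5 slides and below it on slide 2 (-0.09).

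The distance between carriers on the same array is given as a description with no test, since the pairs were chosen with their differences known. The log2 distance from SLC25A6 to SLC25A4 shifted by -0.72 (SE 0.19) from TN to HS, with 14 of 17 HS arrays below the mean of their breed in TN. With the mean of the leukocyte markers described below in the model, the difference between the 2 fitted changes was -0.19, compared with -0.73 without it. Against SLC25A3, SLC25A4 shifted by -0.26 (SE 0.07, 15 of 17 HS arrays), and against SLC25A5, described with the genes named in another way, by -0.90 (SE 0.34, 15 of 17).

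**Figure D2:**
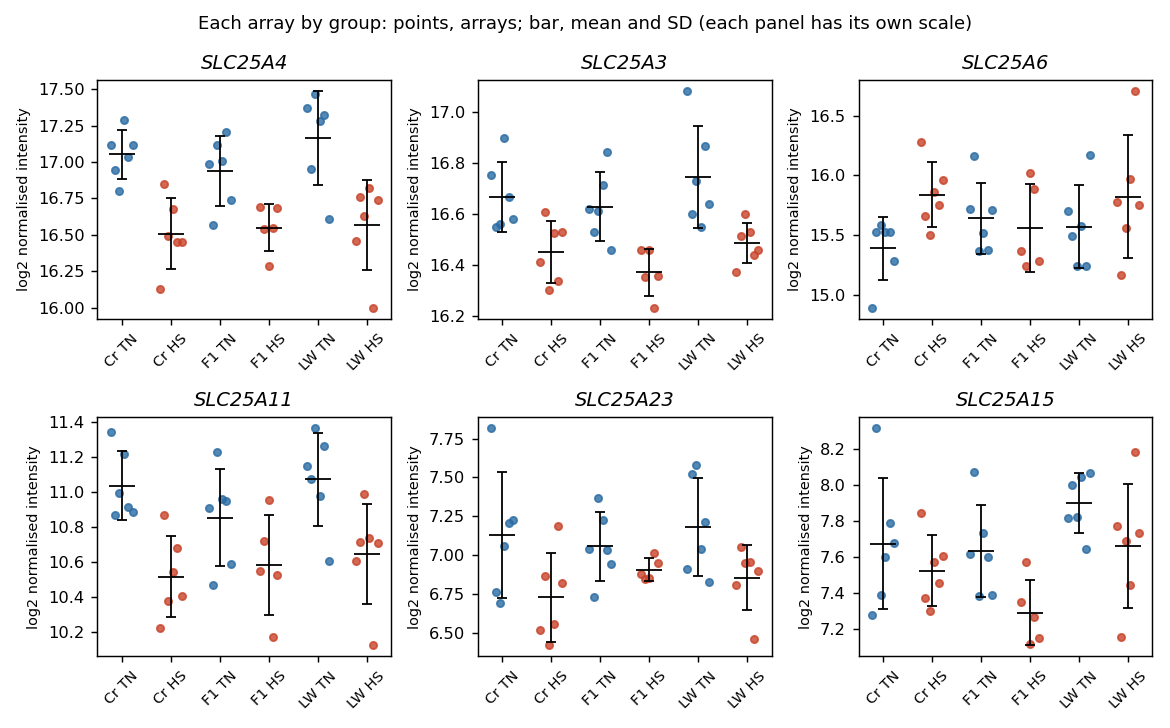
Log2 normalised intensity (y axis, scale set per panel) of 6 carriers in each array, by breed (Cr, Creole; LW, Large White) and temperature (blue TN, red HS), with the mean and SD of each group of 5 or 6 arrays. SLC25A4 and SLC25A3 are lower in HS in each breed, and SLC25A6 overlaps between TN and HS.

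Among the carriers of di- and tricarboxylates, SLC25A11 ranged from 10.47 to 11.36 in TN (median 10.97) and from 10.12 to 10.99 in HS (median 10.60). Of 17 HS arrays, 16 were below the TN mean of their breed, and 12 were inside the TN range. The log2 difference was -0.41 (SE 0.09, adjusted p = 0.00166), measured by the 1 probe shown above. HS was below TN on each slide, by only -0.06 on slide 2 and by -0.77 to -0.24 on the others. SLC25A1, the citrate carrier, differed by -0.17 (SE 0.06, adjusted p = 0.0701) and was not called. SLC25A13, which exchanges aspartate for glutamate, differed by 0.11 (SE 0.09, adjusted p = 0.391).

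SLC25A23, a calcium-dependent carrier of ATP-Mg and phosphate, was called by its brightest probe only. That probe ranged from 6.70 to 7.82 in TN (median 7.05) and from 6.42 to 7.19 in HS (median 6.86), and 13 of 17 HS arrays were inside the TN range. Its log2 difference was -0.30 (SE 0.09, adjusted p = 0.0233). The next brightest probe, on another stretch, gave 0.09 (SE 0.06, adjusted p = 0.347), and the mean of both was not called (-0.10, adjusted p = 0.329). A direction for SLC25A23 therefore rests on 1 probe. Its call was also lost with spike-in scaling (-0.20, adjusted p = 0.210) and with array brightness (-0.23, adjusted p = 0.171) or connective tissue markers (-0.14, adjusted p = 0.352) in the model.

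**Figure D3:**
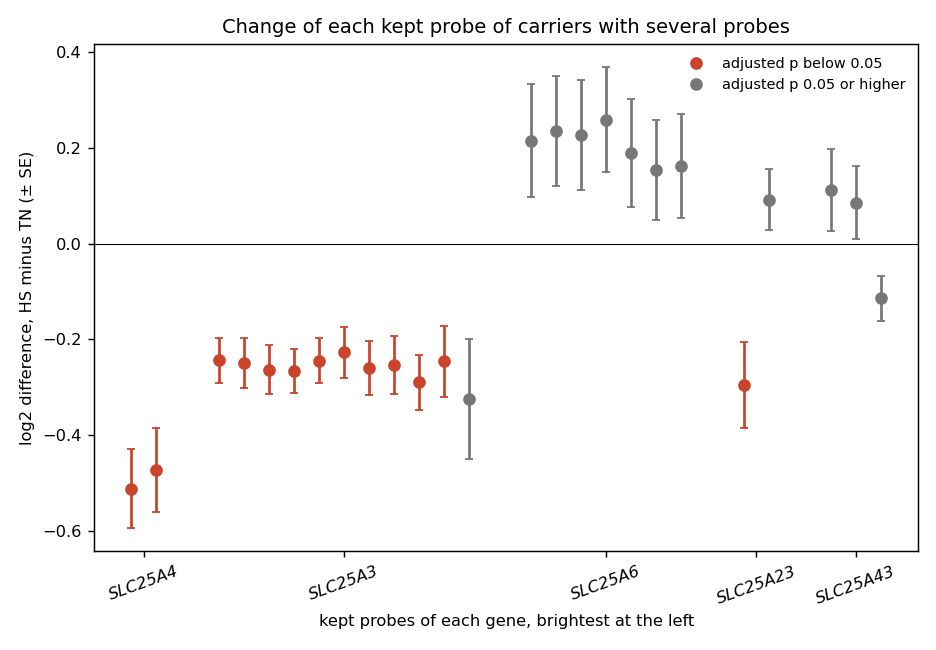
Log2 difference between HS and TN with its SE (y axis) for each kept probe of 5 carriers with several probes (x axis, brightest at the left of each gene), red where the adjusted p was below 0.05. The 2 SLC25A4 and 11 SLC25A3 probes are all below 0 and the 7 SLC25A6 probes all above it, while the probes of SLC25A23 and SLC25A43 lie on both sides.

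None of the remaining carriers was called. The ornithine carrier SLC25A15 came closest, with -0.24 (SE 0.09, adjusted p = 0.0533, with 15 of 17 HS arrays below the mean of their breed in TN). Among carriers of nucleotides and cofactors, the log2 differences were 0.09 for SLC25A17, a peroxisomal carrier of cofactors, -0.03 for the folate carrier SLC25A32, and -0.06 and -0.01 for the pyrimidine nucleotide carriers SLC25A33 and SLC25A36. The relatives of the uncoupling proteins, SLC25A14 and SLC25A27, differed by -0.03 and 0.04. Each of these differences was smaller than its SE, which ranged from 0.05 to 0.14 for these 6 genes.

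SLC25A26, which imports S-adenosylmethionine, differed by -0.09 (SE 0.09). SLC25A28, an iron carrier, differed by -0.06 (SE 0.05), and SLC25A39, linked to glutathione import, by -0.02 (SE 0.06). SLC25A43, whose substrate is not settled, gave 0.11 (SE 0.09), and 1 of the 2 dimmer kept probes pointed the other way (-0.11). SLC25A46, a member of the family in the outer membrane, gave -0.08 (SE 0.08).

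The heat difference was next examined within each breed, in a model with 1 mean per group. In Creole 1 of 19 carriers was called, SLC25A4, against 1.91% of all kept probes. In F1 and in Large White none was called by limma, against 0.00482% of probes in each, and 4 and 5 carriers had an unadjusted p below 0.05. SLC25A4 was 17.05 ± 0.17 (SD, n = 6) in Creole TN and 16.51 ± 0.24 (SD, n = 6) in Creole HS, a difference of -0.54 (SE 0.14, limma adjusted p = 0.0425). The difference was -0.39 (SE 0.15, limma adjusted p = 0.425) in F1 and -0.60 (SE 0.14, limma adjusted p = 0.0650) in Large White. With slide as a fixed block no carrier was called in Creole, and SLC25A4 was called in Large White instead. Leaving out any one of 9 Creole arrays ended the Creole call (0 carriers called), and other arrays left out gave up to 2.

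The 4 carriers called over all breeds were lower in HS in each breed. SLC25A3 was nearly even, with -0.22 in Creole, -0.26 in F1 and -0.26 in Large White (SE 0.08 to 0.09). SLC25A6 had 0.45 (SE 0.20) in Creole, 0.25 (SE 0.20) in Large White and -0.08 (SE 0.21) in F1. SLC25A17 ran furthest apart, with 0.43 (SE 0.18) in Creole, 0.20 (SE 0.18) in Large White and -0.39 (SE 0.18) in F1.

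Whether the heat difference depended on breed was tested with the interaction of both. By limma's moderated F-test no carrier was called, as no probe was (0% of all kept probes), and 1 carrier had an unadjusted p below 0.05. This was SLC25A17, with an unadjusted p of 0.00869 and a limma adjusted p = 0.963. For SLC25A4 the unadjusted p was 0.573 and for SLC25A6 0.190. The breeds were therefore not shown to differ in the heat difference of any carrier.

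**Figure D4:**
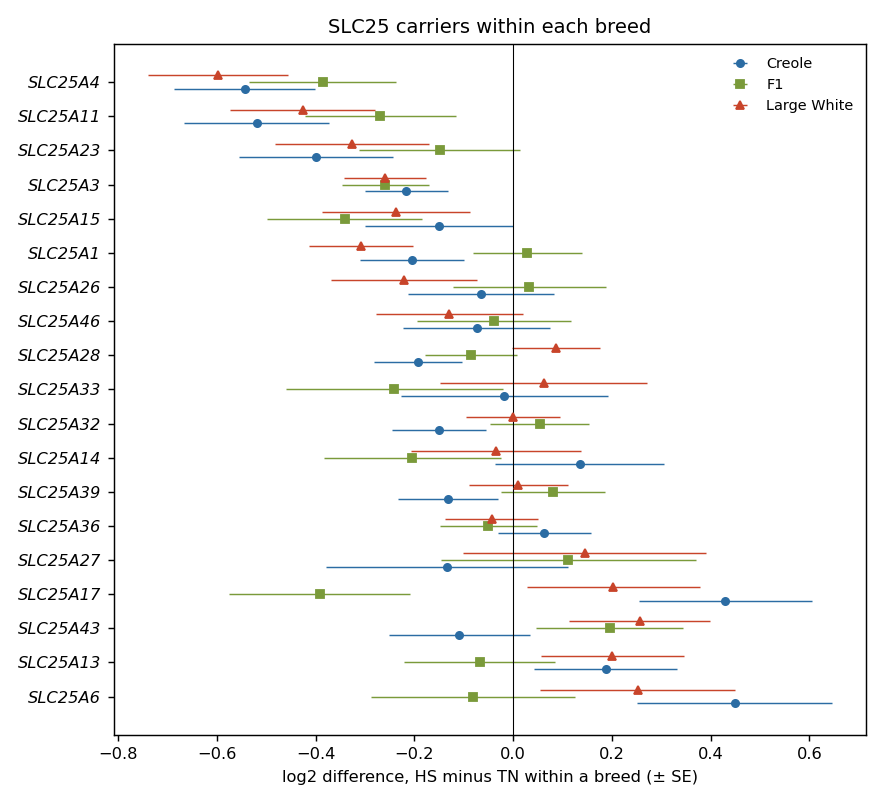
Log2 difference between HS and TN within Creole (circles), F1 (squares) and Large White (triangles) for the 19 carriers (y axis), with SE from limma. SLC25A4, SLC25A11, SLC25A23, SLC25A3 and SLC25A15 lie below 0 in each breed, and SLC25A17 and SLC25A6 lie on both sides.

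Breeds were then compared with temperature in the model. None of the 19 carriers was called by limma between Creole and Large White (3.64% of all kept probes), F1 and Large White (0.525%), F1 and Creole (0.477%) or F1 and the parental midpoint (0.246%). Unadjusted p-values below 0.05 numbered 3, 2, 2 and 2. SLC25A17 had the largest breed difference. It ranged from 7.58 to 9.29 on the 12 Creole arrays (median 8.47) and from 8.59 to 9.46 on the 12 Large White arrays (median 8.84), a log2 difference of -0.40 (SE 0.14, limma adjusted p = 0.110). It was called without Creole HS replicate 1. SLC25A15 was lower in F1 than in Large White by -0.31 (SE 0.11, limma adjusted p = 0.211), and was called with array weights and with the leukocyte marker mean in the model.

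Markers of other cells moved between TN and HS as well. Of 10 leukocyte markers, 5 were called higher in HS and none lower (median log2 difference 0.76), and their summed intensity was 5586 to 29967.5 in TN (median 12598) and 11463.5 to 43867 in HS (median 20827). The 5 called were LAPTM5, CSF1R, TYROBP, AIF1 and CD74. Of the 10, 9 lay higher in HS and 1 lower, PTPRC (-0.02, SE 0.07, adjusted p = 0.906). CD14 was among those not called (0.23, SE 0.21, adjusted p = 0.485), so the marker mean does not stand for every leukocyte marker alike. All 10 markers were well above background on HS arrays and at least 9 on TN arrays. All 8 connective tissue markers lay higher in HS (median log2 difference 0.29), and 2 were called. Of 12 markers of skeletal muscle fibres, all well above background on every array, 10 lay lower in HS and 2 higher. By limma 1 was called higher and 2 lower. Their summed intensity, which the brightest markers dominate, overlapped between TN (4168090 to 4784130) and HS (4085350 to 4599860). Adipocyte and nerve markers had no call by limma (1 unadjusted p below 0.05 in each), and endothelium and red blood cell markers had 1 lower call each.

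Within groups, some carriers followed the leukocyte markers and others ran against them. Over the 35 arrays, taken as deviations from the mean of their group, SLC25A6 rose with the marker mean (Pearson r = 0.85, Spearman rho = 0.86), and SLC25A4 fell with it (r = -0.75, rho = -0.70). For SLC25A23 and SLC25A11 r was -0.70 and -0.62, and for SLC25A3 it was -0.28. Without the 2 arrays farthest from the median of the markers, r was 0.82 for SLC25A6 and -0.75 for SLC25A4. Within the 4 slides of 8 arrays it was 0.89 to 0.96 and -0.81 to -0.58. These are descriptions with no test, and all values of an array share its RNA and its normalisation.

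With the leukocyte marker mean in the model, the difference of SLC25A3 was -0.21 (adjusted p = 0.0173) and that of SLC25A4 -0.31 (adjusted p = 0.00573). SLC25A11 was then -0.23 (adjusted p = 0.0660) and SLC25A23 -0.09 (adjusted p = 0.534), neither of them called, and SLC25A6 turned to -0.12 (adjusted p = 0.344). SLC25A15 and SLC25A43 were called in that model, but their differences in it are not given here. Without the marker mean they were -0.24 and 0.11, and neither gene was called. Array brightness was also higher in HS, with a 75th percentile of 9.24 log2 against 9.05 in TN, and with it in the model SLC25A3, SLC25A4, SLC25A11 and SLC25A15 were called. Of 50 settings, 35 of them with 1 array left out, SLC25A3 and SLC25A4 were called in each, SLC25A11 in 49 and SLC25A23 in 46. SLC25A15 was called in 13 and SLC25A43 in 1. The calls of SLC25A11 and SLC25A23 were lost only in settings other than the 35. The mean of the kept probes of a gene, by which SLC25A23 was not called, is not among the 50.

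**Figure D5:**
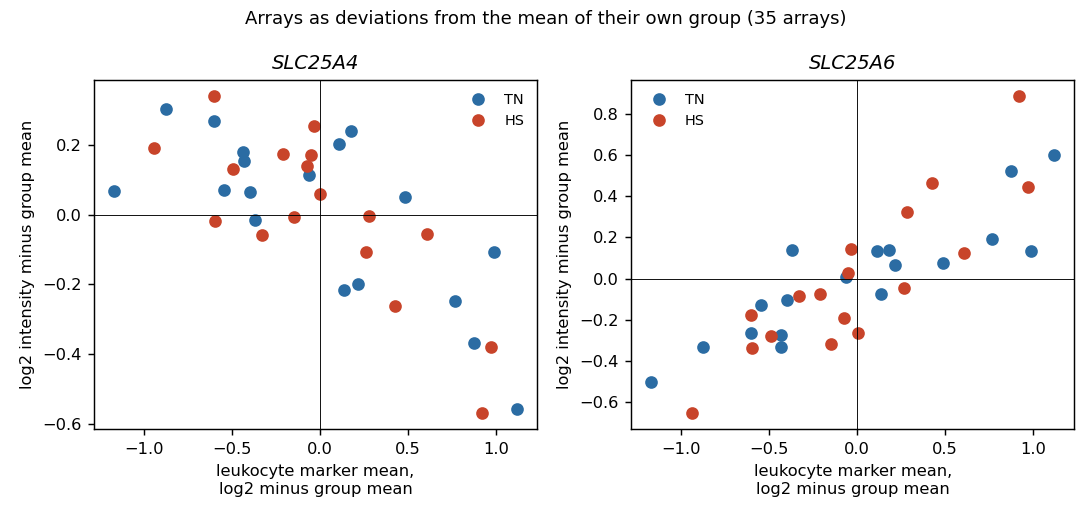
SLC25A4 (left) and SLC25A6 (right) on each of 35 arrays (y axis, log2 minus the group mean) against the mean of 10 leukocyte markers (x axis, log2 minus the group mean), blue for TN and red for HS. Arrays with more leukocyte marker signal than their group have less SLC25A4 (r = -0.75) and more SLC25A6 (r = 0.85), in both TN and HS.

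A further 11 carriers were on the array under another name, in lower or mixed case or by description or accession, and 10 had a kept probe. Of these, 2 were called lower and 2 higher in HS, against 8.30% lower and 7.73% higher over all kept probes. The probe named for SLC25A12, the aspartate/glutamate carrier of muscle, differed by -0.37 (SE 0.09, adjusted p = 0.00678), from 7.08 ± 0.28 (SD, n = 18) in TN to 6.71 ± 0.26 (SD, n = 17) in HS, but it may read the opposite strand, as the SLC25A1 probe named in lower case does, so this may not be the level of the SLC25A12 transcript. It was not called with the leukocyte marker mean (-0.13, adjusted p = 0.262), the connective tissue marker mean (-0.27, adjusted p = 0.105) or array brightness (-0.27, adjusted p = 0.0922) in the model. SLC25A41, a carrier of ATP-Mg and phosphate, differed by -0.16 (SE 0.05, adjusted p = 0.0325). SLC25A24, of the same subgroup, was higher by 0.31 (SE 0.07, adjusted p = 0.00202), and SLC25A38, a glycine carrier, by 0.27 (SE 0.06, adjusted p = 0.00305), each on 17 of 17 HS arrays.

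SLC25A5, the ADP/ATP carrier of dividing cells, was the most variable of these. It ranged from 9.20 to 12.00 in TN and from 9.66 to 12.67 in HS, and its difference of 0.41 (SE 0.26, adjusted p = 0.290) was not called by any of its 6 probes. With the leukocyte marker mean in the model it turned to -0.39 (adjusted p = 0.0283). SLC25A44, a branched-chain amino acid carrier, gave -0.08 (SE 0.10) and SLC25A42, a coenzyme A carrier, -0.01 (SE 0.09). With names read without regard to capitals, there were 27 genes, 24 of them measured. Of those measured, 5 were called lower, the SLC25A12 probe among them, and 1 higher.

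Of the homologues with names of their own, the muscle uncoupling protein UCP3 fell most, by a log2 difference of -0.96 (SE 0.28, adjusted p = 0.0196). It ranged from 12.46 to 15.56 in TN and from 11.13 to 14.29 in HS, with 11 of 17 HS arrays inside the TN range. UCP3 was higher in HS on slide 2 (0.45) and lower on the other 4 slides (-1.77 to -1.13). All 3 UCP3 probes were called, from -0.997 to -0.193. UCP2, an uncoupling protein found in many cell types, gave 0.56 (SE 0.21, adjusted p = 0.0595) with its brighter probe and 0.68 (SE 0.22, adjusted p = 0.0320) with the dimmer one. MTCH1 and MTCH2, carrier-like proteins of the outer membrane, gave 0.17 (SE 0.07, adjusted p = 0.0946) and -0.04 (SE 0.04).

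The proteins that work beside the carriers were described from lists by role. Of 6 enzymes of the malate-aspartate and glycerol phosphate shuttles, 4 were called lower and none higher: the aspartate transaminases GOT1 (-0.55, SE 0.13) and GOT2 (-0.31, SE 0.06) and the malate dehydrogenases MDH1 (-0.26, SE 0.06) and MDH2 (-0.31, SE 0.07). These enzymes belong to the malate-aspartate shuttle, as SLC25A11 does. Of the outer membrane channels, VDAC1 (-0.19, SE 0.05) and VDAC2 (-0.18, SE 0.05) were called lower and VDAC3 (-0.02, SE 0.06) was not. The measured subunit of the pyruvate carrier, MPC2, was lower by -0.20 (SE 0.06, adjusted p = 0.0177).

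Of 4 measured genes of mitochondrial calcium uptake, 1 was called, MCUB, an inhibitory subunit of the uniporter, with 0.64 (SE 0.16, adjusted p = 0.00725). The import machinery of the carriers had no call by limma among 5 genes (3 unadjusted p below 0.05), and among 11 other import genes TIMM44 (-0.24) and TIMM8A (-0.21) were lower and TOMM22 (0.13) higher. Neither of 2 measured sideroflexins was called (1 unadjusted p below 0.05). Of 76 gene names with the prefixes of respiratory chain and ATP synthase subunits, 47 were called lower and 1 higher (median -0.21), the largest falls being NDUFV1 (-0.40) and NDUFS1 (-0.37) of complex I. These names include COX4NB and ATP5SL, which are not subunits, and COX6B and COX6B1, which stand for the same gene. The 1 name called higher was COX7A2L (0.26), which its prefix alone does not make a subunit. It was named, with TOMM22, after their values were seen. Of the partner lists other than the respiratory chain, with the homologue UCP3, 12 genes were called, against 16.0% of all kept probes. Measured were 6 shuttle enzymes, 3 channels, 1 pyruvate carrier subunit, 4 calcium genes, 5 and 11 import genes, 2 sideroflexins and 4 homologues. With the leukocyte marker mean in the model 1 gene was called, and the share of all kept probes called in that model was not counted. Calls among the respiratory chain names were not counted in that model or under any other alternative.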

How the data were processed

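Muscle RNA was labelled with Cy3 and hybridised to 1-colour porcine Agilent arrays. Per the file headers and labels, the authors quantified spots with Feature Extraction 10.10.1.1, and the deposited scanner files hold linear intensity values. The authors also deposited log2 values of 40649 probes after quantile normalisation, used here as an alternative. Here, the median intensity of 60306 non-control spots was quantile-normalised and log2-transformed, and 105 outlier spots were left out. No spot was saturated. A gene was read by its kept probe of highest mean.

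Comparisons were fitted with limma 3.58.1 (R 4.3.3), threshold 0.05, with the alternatives given in the closing section. Pen, slaughter day and parents, which the labels lack, were not modelled. Animals that share them were treated as independent, so the errors and adjusted p-values may be too small. The study's mixed model held these terms and called fewer muscle probes than the 6654 called here at the same threshold. The number of arrays limits the precision. Fits were tested on simulated data. Genes were named by fixed rules: every called member, 8 fixed carriers, and called partners. The members and lists were chosen with earlier results of these data known. The array lists 5 partner genes under older symbols, matched after the files were seen. Promoter motifs and genome positions were not analysed here, and 1 gene of the family is not reported here.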

Additional observations from a re-analysis of the deposited data

Results flagged for a closer look

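In 5 of 114 combinations of carrier and group (4.39%), 1 array stood apart from the others of its group by Dixon's criterion, which chance alone gives in about 1 of 20. In Creole TN, replicate 3 was highest for SLC25A13 (6.97, next 6.67) and for SLC25A14 (9.02, next 8.27). In F1 TN, replicate 2 was highest for SLC25A13 (7.36, next 6.91). In Creole HS, replicate 1 was lowest for SLC25A27 (7.88, next 8.76). In Large White TN, replicate 1 was highest for SLC25A46 (8.60, next 7.56). All values are log2 normalised intensity.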

How the results depend on the processing

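The number of carriers called between HS and TN, 4 here, was 3 to 6 over the settings, among them the connective tissue marker mean in the model and names read without regard to capitals, both added after seeing the data. It was 4 to 6 with 1 array left out. The median difference of the carriers was -0.08 to 0.08 over the settings, the highest with spike-in scaling. The single call in Creole became 0 with the processed signal at 75th percentile scaling, with median or spike-in scaling, no filter, slide as a fixed block, brightness or leukocyte markers in the model, and 0 to 2 with 1 array left out. In Large White it was 1 with slide as a fixed block and with array weights, and 0 to 2 with 1 array left out (2 without Large White TN replicate 6). F1 minus Large White gave 1 with array weights and 1 with leukocyte markers, and Creole minus Large White 0 to 1 with 1 array left out. The 12 partner genes and homologues called became 3 with brightness, 1 with leukocyte markers and 6 with connective tissue markers. The share of all kept probes called in these 3 models was not counted. The cause of these changes was not tested.

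SLC25A6 turned to -0.12 with leukocyte markers. SLC25A5 turned to -0.011 with brightness and -0.39 with leukocyte markers. SLC25A42, at -0.01, became 0.00897 with median scaling, 0.0863 with spike-in scaling, 0.0440 with array weights, 0.0764 with brightness, 0.140 with leukocyte markers, 0.0212 with connective tissue markers and -0.0474 to 0.0284 with 1 array left out. SLC25A44 became 0.0634 with spike-in scaling and 0.00904 with brightness. No paired analysis was possible because the replicate numbers only name arrays in accession order.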
